A study of Caenorhabditis elegans with 8 samples.

Results

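The proteasome subunit genes of Caenorhabditis elegans were followed in whole adult worms of a mir-83 mutant and of wild type at 2 ages. Members were all genes named pas, pbs, rpt or rpn with a number, and 33 of the 18339 genes present in both deposited count sheets met that rule. Of these, 14 encode the core particle (7 in the alpha ring and 7 in the beta ring) and 19 the regulatory particle (6 ATPases and 13 other subunits). The groups were the mir-83 mutant strain MT15501 at adult day 12, wild-type strain N2 at day 12, the mir-83 mutant at day 4 and N2 at day 4, with 2 libraries each. All worms grew at 20 ℃ on plates containing FuDR, which keeps adults from producing offspring, and were rinsed free of the OP50 food bacteria before RNA extraction. The mutant is represented by a single strain, and the mir-83 microRNA itself was not analysed here. The study asked how the absence of this microRNA changes gene expression and lifespan with age.

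The proteasome is the protease that degrades proteins tagged with ubiquitin. Its core particle is a barrel of stacked rings, in which the alpha rings gate the entrance and the beta rings carry the active sites. The regulatory particle caps the barrel, where non-ATPase subunits bind ubiquitin and remove it and a ring of ATPases unfolds the substrate and feeds it inward. In worms the transcription factor SKN-1A raises transcription of subunit genes when proteasome function is impaired, and raised levels of the subunit gene rpn-6.1 have been tied to long life in this animal.

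Depth was 20.3 to 41.2 M reads a library, and all 33 members were among the 15874 genes that passed the filter on low counts. Levels are CPM, read counts divided by the library total in M reads, scaled with TMM factors, which correct library sizes under the premise that most genes do not differ. These factors were 0.644 and 0.596 in the mir-83 day 4 libraries against 1.08 to 1.23 in the other 6. The choice of scaling therefore sets the level of every gene in mir-83 at day 4. The median log2 difference of all genes, mir-83 against N2 at day 4, was -0.14 with TMM factors and -0.99 on plain library sizes, a shift of about 0.85 for every gene. For genes that passed a test and for medians, the value on plain library sizes is given wherever its direction differs. Across genes, replicates correlated at 0.894 in mir-83 at day 12, against 0.948 to 0.975 in the other groups. Values of that group rest on unlike libraries. The 33 members took 1.08% and 0.764% of reads in mir-83 at day 12, 0.938% and 0.793% in N2 at day 12, 0.679% and 0.651% in mir-83 at day 4, and 0.705% and 0.748% in N2 at day 4. Both mir-83 libraries at day 4 thus lay below both N2 libraries in this share, which uses plain library sizes.

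Per kilobase of exon, the alpha ring genes pas-3 and pas-5 and the beta ring gene pbs-1 were the 3 most abundant members in each of the 4 groups. In mir-83 at day 4, pbs-1 stood first with 794 ± 19.1 CPM per kilobase (SD, n = 2) and pas-3 second with 523 ± 4.00. In N2 at day 4, pas-3 had 364 ± 16.8 and pbs-1 356 ± 63.1 CPM per kilobase, which did not differ beyond their spread. At day 12, pas-3 led with 416 ± 132 CPM per kilobase in mir-83 and 361 ± 57.2 in N2, ahead of pbs-1 with 299 ± 20.9 in mir-83 and 294 ± 33.8 in N2. At the low end, rpn-6.2, a paralogue of rpn-6.1, had 19.6 ± 16.98 CPM per kilobase in mir-83 and 20.2 ± 2.07 in N2 at day 12, and 14.9 ± 0.252 in mir-83 and 7.41 ± 4.05 in N2 at day 4. Of the subunits of the canonical particle, rpn-1 was lowest in 3 of the groups, with 37.96 ± 5.07 CPM per kilobase in N2 at day 4.

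**Figure D1:**
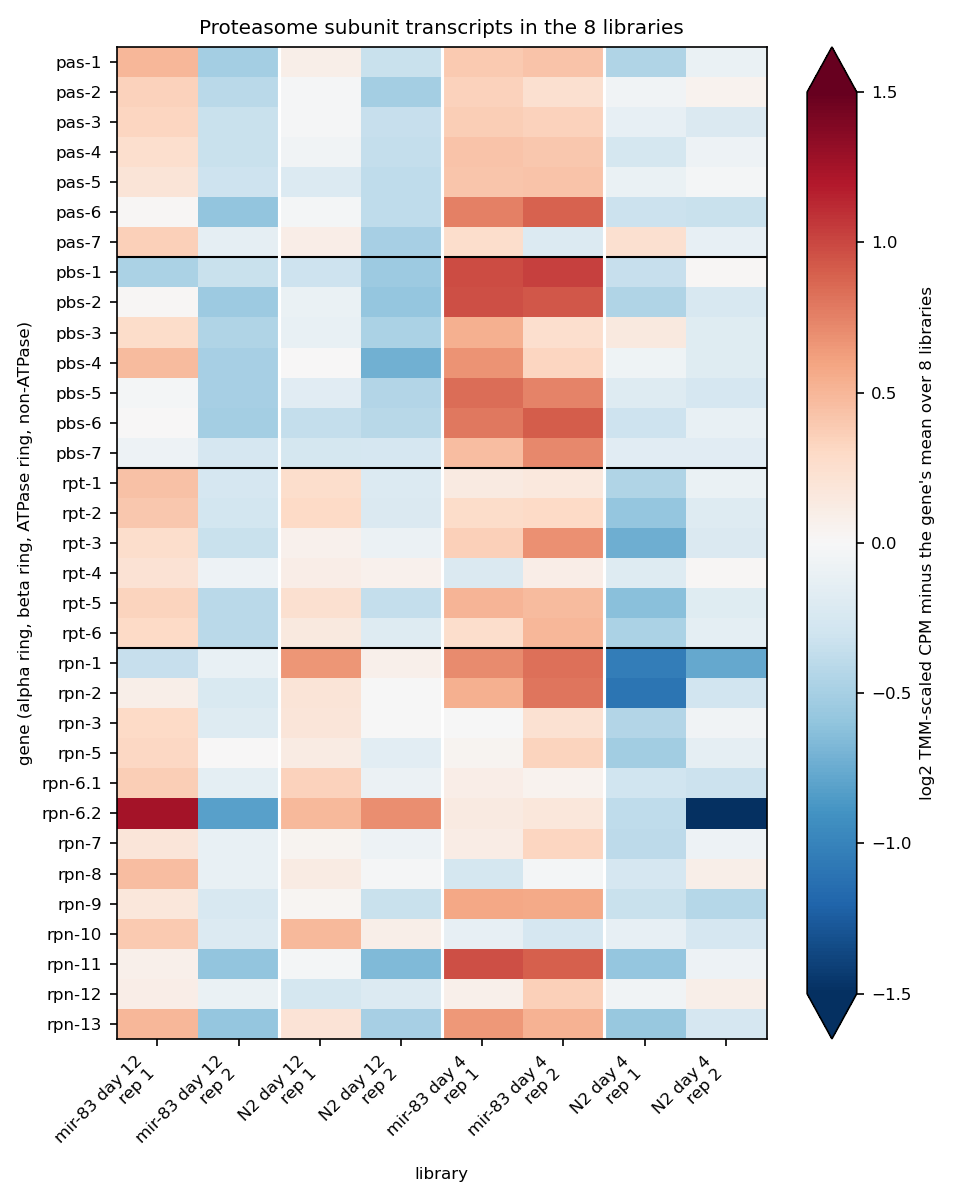
Each cell gives the log2 TMM-scaled CPM of 1 subunit gene (rows, ordered by ring) in 1 library (columns, 2 per group), minus that gene's mean over the 8 libraries. In 5 of the 7 beta ring rows both mir-83 day 4 libraries are above the other 6 (all but pbs-3 and pbs-4), and rpn-1 is lowest in the N2 day 4 libraries.

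At day 4, most proteasome transcripts stood above N2 in both mir-83 libraries with TMM factors, and few did on plain library sizes. Those of the beta ring stood out by their level, with a median log2 difference of 1.02 over 7 genes (0.16 on plain library sizes). The medians were 0.53 in the alpha ring, 0.67 in the ATPase ring and 0.51 among the non-ATPase subunits, against -0.33, -0.18 and -0.34 on plain library sizes. By edgeR's quasi-likelihood test with adjusted p under 0.05, 6 members were higher and 0 lower, 4 in the core particle and 2 in the regulatory particle. Among all genes tested, 4.42% were higher and 2.62% lower. Both mir-83 libraries lay above both N2 libraries in 28 of the 33 members, 13 of 14 in the core and 15 of 19 in the regulatory particle, against 29.4% of all genes, and 0 members had both libraries below, against 35.4%. With plain sizes those counts were 7 above and 16 below, against 9.87% and 64.5% of all genes.

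In the alpha ring pas-6 alone passed the test. Its gene lies on chromosome V from 5583161 to 5584343 (WBcel235, the assembly called ce11). It had 396 and 433 CPM in mir-83 at day 4, against 188 and 187 CPM in N2. The groups lay far apart beside the narrow spread within each, with a log2 fold change of 1.15 ± 0.27 (SE) and edgeR adjusted p of 0.043, and 0.30 on plain library sizes. The other 6 alpha subunits lay between -0.03 (pas-7) and 0.65 (pas-1), and 5 of them were higher in both mir-83 libraries with TMM factors but below 0 on plain library sizes. For pas-7 the groups overlapped, with 275 and 197 CPM in mir-83 and 268 and 209 CPM in N2. With plain sizes pas-7 fell by 0.88 (edgeR adjusted p 0.016).

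The beta ring holds the active sites, in pbs-1 (caspase-like activity), pbs-2 (trypsin-like) and pbs-5 (chymotrypsin-like), and all 3 were higher in mir-83 at day 4 by the test with TMM factors. The gene pbs-1, on chromosome IV from 1708814 to 1709745, had 642 and 664 CPM in mir-83 and 256 and 329 CPM in N2. Its log2 fold change was 1.16 ± 0.25 (edgeR adjusted p 0.037). Both mutant libraries stood well above the higher N2 library. For pbs-2, on chromosome I from 12967216 to 12968280, the levels were 365 and 357 CPM in mir-83 and 136 and 157 CPM in N2, a log2 fold change of 1.29 ± 0.28 (edgeR adjusted p 0.035). For pbs-5, on chromosome I from 14719167 to 14720477, they were 385 and 359 CPM in mir-83 and 187 and 180 CPM in N2, with 1.02 ± 0.24 (edgeR adjusted p 0.043). None of the 3 passed on plain library sizes, where the log2 differences were 0.32, 0.44 and 0.16. The non-catalytic pbs-6 had 378 and 409 CPM in mir-83 against 176 and 203 CPM in N2 and fell just outside the threshold (1.05 ± 0.26, edgeR adjusted p 0.052). For pbs-7 the levels were 324 and 387 CPM in mir-83 and 207.8 and 207.6 CPM in N2. It, pbs-3 and pbs-4 had log2 differences of 0.77, 0.41 and 0.61 with no overlap between groups, and -0.08, -0.45 and -0.24 on plain library sizes. Exons of pbs-7 share 7.97% of their length with a neighbouring gene on the same strand, and reads there cannot be told apart. Those of pbs-4 share 9.11% with a gene on the opposite strand. Whether reads there were told apart depends on the use of strand, which is not given.

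In the ATPase ring no gene passed edgeR's test at an adjusted p of 0.05. At an unadjusted p under 0.05 there were 2 (rpt-3 and rpt-5), against 13.5% of all genes in the same direction. The ATPase gene rpt-3, on chromosome III from 6489793 to 6491282, had 280 and 354 CPM in mir-83 and 132 and 189 CPM in N2. The log2 fold change was 0.98 ± 0.31 (edgeR adjusted p 0.090), and 0.13 on plain library sizes. The other 5 lay between 0.03 (rpt-4) and 0.86 (rpt-5), and between -0.82 and 0.01 for the same genes on plain library sizes. In rpt-4 the groups overlapped, with 157 and 195 CPM in mir-83 and 160 and 185 CPM in N2.

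Among the non-ATPase subunits the largest difference of the 33 members was in rpn-1, a scaffold that docks ubiquitin and its shuttle factors, on chromosome IV from 6906420 to 6909913. It had 366 and 399 CPM in mir-83 at day 4, against 109 and 132 CPM in N2. That is a 3.17-fold difference (log2 1.67 ± 0.29, edgeR adjusted p 0.025), and rpn-1 is the only member called higher on plain library sizes as well (log2 0.82 ± 0.24, adjusted p 0.043). The other large scaffold, rpn-2, on chromosome III from 6199184 to 6202594, had 533 and 642 CPM in mir-83 and 172 and 301 CPM in N2. It passed narrowly (log2 1.33 ± 0.32, edgeR adjusted p 0.049), with a wide gap between its N2 libraries, and stood at 0.48 on plain library sizes. The deubiquitinase gene rpn-11, on chromosome II from 4043055 to 4044546, had 557 and 532 CPM in mir-83 and 191 and 271 CPM in N2, which did not pass (log2 1.22 ± 0.33, edgeR adjusted p 0.063). Neither did rpn-9, a subunit of the lid, at 0.96 ± 0.24 (adjusted p 0.053), nor the ubiquitin receptor gene rpn-13 at 0.96 ± 0.35 (adjusted p 0.13).

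Other non-ATPase genes showed little difference on the TMM scale. The ubiquitin receptor gene rpn-10, on chromosome I from 10730712 to 10732424, had 120 and 110 CPM in mir-83 and 121 and 110 CPM in N2, so the groups coincided. The lid gene rpn-12, on chromosome II from 11653124 to 11654192, had 150 and 182 CPM in mir-83 and 138 and 152 CPM in N2, which overlapped (-0.66 on plain library sizes). For rpn-6.1, on chromosome III from 6959110 to 6962001, the levels were 175 and 169 CPM in mir-83 and 133 and 131 CPM in N2 (log2 0.38 ± 0.25, edgeR adjusted p 0.35), and its log2 difference was -0.47 on plain library sizes. The lid gene rpn-8 had 232 and 272 CPM in mir-83 and 232 and 295 CPM in N2. With plain sizes 5 members were called lower in mir-83 (pas-7, rpn-8, rpn-10, rpn-12 and rpt-4), against 24.1% of all genes lower and 1.32% higher.

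The count of 6 members rested on every day 4 library: leaving out any 1 of the 4 left 0 called, while leaving out mir-83 day 12 replicate 1 or 2 gave 10 and leaving out N2 day 12 replicate 1 or 2 gave 3. Without a block for the replicate number, 1 member was called, rpn-1. Shares of all genes called are not given for these fits, so the counts show only how the calls moved.

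**Figure D2:**
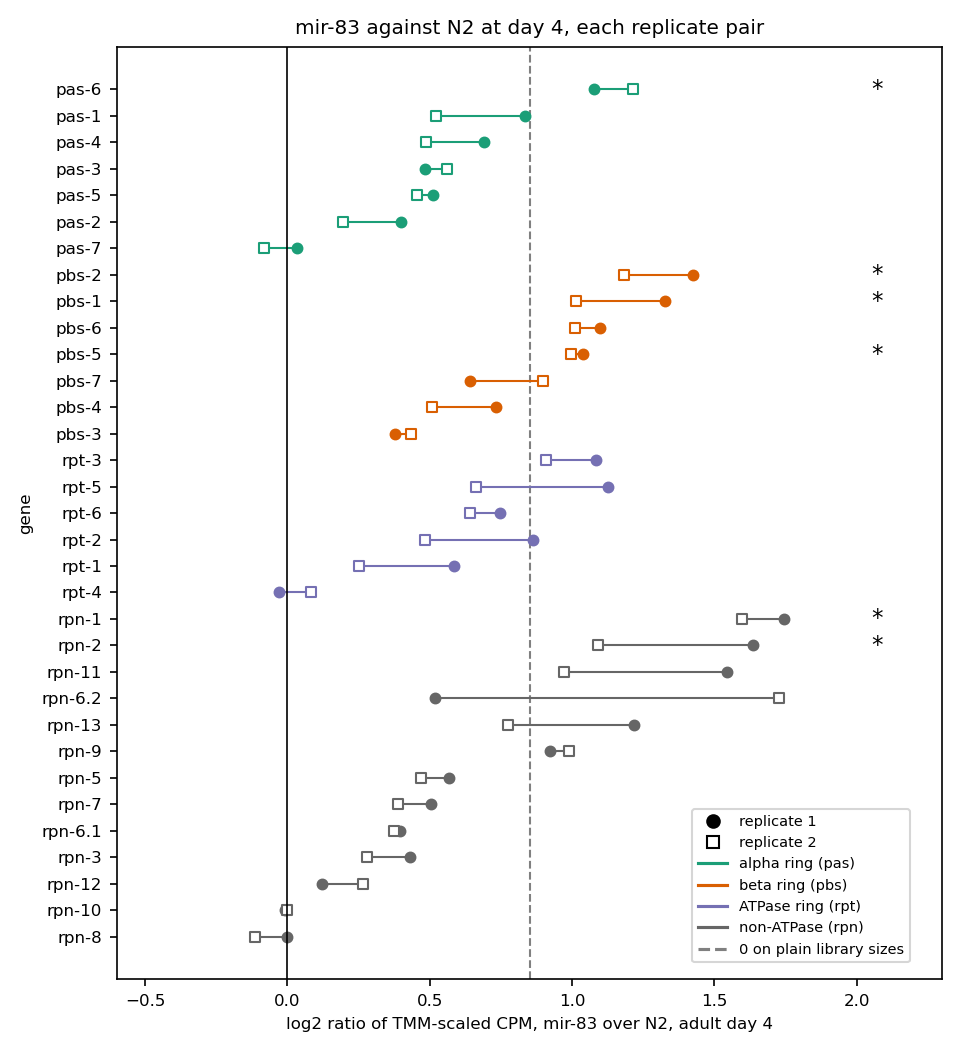
The log2 ratio of mir-83 over N2 at adult day 4 is plotted for each replicate pair (filled circles, replicate 1; open squares, replicate 2) of the 33 subunit genes, on the TMM scale. Asterisks mark the 6 genes with an edgeR adjusted p under 0.05. The dashed line marks where 0 would lie on plain library sizes, and rpn-1 lies far to its right in both pairs.

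The spread among members does not depend on the scaling, which moves all of them alike. The share of the 33 members' own reads that fell on rpn-1 was 3.47% and 3.65% in mir-83 at day 4, against 1.80% and 1.90% in N2. For pbs-1 the shares were 6.09% and 6.08% in mir-83 and 4.21% and 4.74% in N2, and for pbs-2 3.46% and 3.27% in mir-83 and 2.24% and 2.27% in N2. These 3 genes took a larger part of the proteasome transcripts in both mutant libraries. At the other end, rpn-8 took 2.196% and 2.49% in mir-83 against 3.82% and 4.25% in N2, and rpn-10 took 1.14% and 1.01% against 1.99% and 1.58%. Across the 33 genes the day 4 differences of replicate 1 and replicate 2 correlated at 0.782 (0.901 in the core and 0.735 in the regulatory particle), as a description. The day 4 difference had a Spearman correlation of 0.127 with exon length and 0.211 with mean CPM over the members. Its median was 0.59 in the 10 members on chromosome I and 0.65 in the other 23.

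The balance of beta to alpha ring transcripts, the log2 ratio of their geometric means, is likewise free of the scaling; it was chosen after the values were seen and carries no test. It was 0.173 and 0.187 in mir-83 at day 4, against -0.200 and -0.197 in N2. At day 12 it was -0.412 and -0.224 in mir-83 and -0.318 and -0.242 in N2. The mir-83 day 4 libraries were the only 2 of the 8 above 0. The difference at day 4 was 0.379, and 0.482 without pas-6, the alpha subunit gene that was itself higher in mir-83. Leaving out that gene could only raise the difference. No beta ring gene was left out, so how far the ratio rests on single beta genes was not tested.

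**Figure D3:**
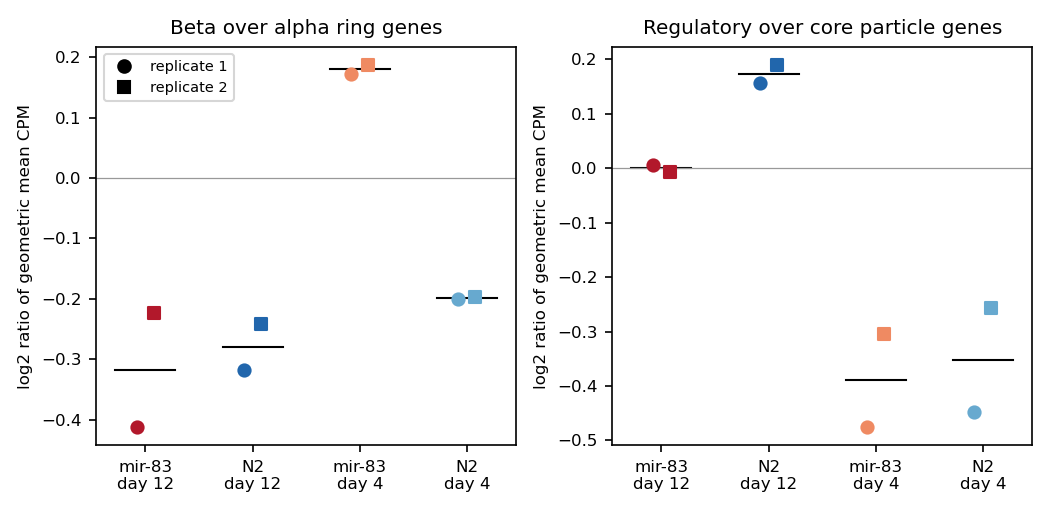
The left panel gives the log2 ratio of the geometric mean CPM of the 7 beta over the 7 alpha ring genes, and the right panel that of the 19 regulatory over the 14 core particle genes, for each library (circles, replicate 1; squares, replicate 2) with the group mean as a line. Beta over alpha is above 0 only in mir-83 at day 4, and regulatory over core is higher at day 12 than at day 4 in both strains.

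Markers of tissues also differed at day 4. Among all genes, 4.42% were higher in mir-83 and 2.62% lower, and 1.32% and 24.1% on plain library sizes. Of 10 body wall muscle markers, 6 were higher in mir-83 with either scaling, and their summed level was 9325 and 7433 CPM in mir-83 against 1581 and 1875 CPM in N2. Of 10 intestine markers, 6 were higher (5 on plain library sizes), with 106116 and 143656 CPM in mir-83 against 23139 and 21075 CPM in N2. Most of that sum came from the yolk protein genes vit-2, vit-5 and vit-6. The markers elt-2, elt-7, ges-1 and mtl-2 did not pass, with log2 differences of 0.09, 0.32, 0.67 and 0.91. On plain library sizes these were -0.75, -0.55, -0.21 and 0.04. Of 10 oocyte markers, 2 were higher (20400 and 23401 CPM in mir-83, 7626 and 7333 CPM in N2), and of 10 germline markers, 4 (3411 and 3105 CPM in mir-83, 1681 and 1592 CPM in N2), falling to 1 in each list on plain library sizes, where 3 germline markers were called lower. Of 8 embryo markers tested, 3 were lower in mir-83. They were sdz-1, sdz-4 and sdz-28, with at most 0.56 CPM in mir-83 and 2.39 to 14.9 CPM in N2. The summed level of the embryo list was 104.2 and 98.6 CPM in mir-83, and 176 and 167 CPM in N2. It was mostly pal-1, which did not pass (edgeR adjusted p 0.23). Of 9 neuron markers, 2 were higher (1078 and 689 CPM in mir-83, 517 and 355 CPM in N2). Of 9 sperm markers, none passed edgeR's test at any comparison, and at day 4 none had an unadjusted p under 0.05. None of these markers was at 0 in any library except among the embryo markers, where 3 of the 10 listed were. Their part in the proteasome results was not tested, and in whole worms more cells of a type and more RNA per cell cannot be told apart.

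Genes that act with the proteasome gave a mixed picture at day 4. Beside these and the following lists at day 4, 4.42% of all genes were higher and 2.62% lower. On plain library sizes 1.32% were higher and 24.1% lower. In the list for SKN-1A activation 3 of 8 were higher in mir-83 and 0 lower, with a median of 0.86 (1 higher, 3 lower and a median of 0.01 on plain library sizes). They were sel-11, a ubiquitin ligase of the endoplasmic reticulum (407 and 445 CPM in mir-83, 101 and 138 CPM in N2, log2 1.84 ± 0.25, edgeR adjusted p 0.021), the segregase gene cdc-48.1 (1.63 ± 0.34, adjusted p 0.033) and png-1, which encodes the glycanase that processes SKN-1A (1.18 ± 0.28, adjusted p 0.046). Of these, sel-11 was also called higher on plain library sizes (1.00, adjusted p 0.015). The transcription factor gene skn-1 itself, counted over all its isoforms, had 211 and 157 CPM in mir-83 and 105 and 99.7 CPM in N2 (0.83 ± 0.23, adjusted p 0.069; -0.02 on plain library sizes). The protease gene ddi-1 had 110 and 117 CPM in mir-83 and 130 and 153 CPM in N2 (-0.32 ± 0.24, adjusted p 0.44), and aip-1, whose product associates with the proteasome, a log2 difference of -0.10. Both were called lower on plain library sizes (-1.17 and -0.95).

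Of 10 proteasome-associated and ubiquitin shuttle genes, 1 was higher and 0 lower (median 0.68), against 0 higher and 3 lower on plain library sizes (median -0.17). It was uba-1, the ubiquitin-activating enzyme, with 609 and 683 CPM in mir-83 and 264 and 337 CPM in N2 (log2 1.11 ± 0.25, edgeR adjusted p 0.038; 0.26 on plain library sizes). The lid subunit gene dss-1 had 0.68, the deubiquitinase gene ubh-4 -0.14 and the assembly chaperone gene psmd-9 -0.65, none past the test. On plain library sizes dss-1 stood at -0.18, and ubh-4 (-0.99) and psmd-9 (-1.498) were called lower. Of 10 genes for CDC-48 and ubiquitin chain handling, 1 was higher (cdc-48.1, which stands in both lists) and 1 lower, the deubiquitinase gene atx-3, with 34.9 and 35.3 CPM in mir-83 and 76.8 and 76.3 CPM in N2 (log2 -1.12 ± 0.27, edgeR adjusted p 0.045). The median of that list was -0.40, and plain library sizes gave 0 higher and 7 lower with a median of -1.25. Of 18 ubiquitin-conjugating enzymes tested, let-70 (log2 1.29, adjusted p 0.032) and ubc-26 (1.78, adjusted p 0.027) were higher, and on plain library sizes 0 were higher and 4 lower.

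Other large complexes were set beside the proteasome. Of 20 V-ATPase genes, subunits of the proton pump that acidifies lysosomes, 5 were higher in mir-83 at day 4 (vha-2, vha-6, vha-11, vha-12 and vha-13; median 0.84). Plain library sizes gave 3 higher (vha-2, vha-12 and vha-13) and 4 lower, with a median of -0.01. Of 8 CCT chaperonin genes, 2 were higher (cct-1 and cct-7; median 0.90), against 0 higher and 1 lower on plain library sizes (median 0.05). Of 6 genes of the COP9 signalosome, which shares its architecture with the proteasome lid, 0 were called by edgeR (median -0.55). At an unadjusted p under 0.05 there were 3, all lower in mir-83. Among all genes, 4190 of 15874 had such a p, and 2141 of those were higher. On plain library sizes all 6 were called lower (median -1.40). Their summed level was 365 and 405 CPM in mir-83 and 476 and 575 CPM in N2.

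At day 12 no difference in proteasome transcripts between mir-83 and N2 worms was detectable with these libraries. No member passed edgeR's test, against 0.0% of all genes, and no member had an unadjusted p under 0.05, against 1.93%. DESeq2 called no member, and 0.0126% of all genes higher and 0.0126% lower. The median log2 difference was 0.17 in the core and 0.04 in the regulatory particle, against -0.03 for all genes. Medians of single replicate pairs were 0.33 and 0.02 in the core and 0.14 and -0.09 in the regulatory particle. Without mir-83 day 12 replicate 1 the medians were -0.07 and -0.32, and without replicate 2 they were 0.42 and 0.34, so their direction rests on which library of that group is used.

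The member values at day 12 overlapped between strains for all but 3 genes with TMM factors. The gene pbs-1 had 234 and 258 CPM in mir-83 and 261 and 222 CPM in N2. For pbs-2 the levels were 189 and 128 CPM in mir-83 and 175 and 125 CPM in N2, and for pbs-5 210 and 152 CPM in mir-83 and 191 and 158 CPM in N2. The levels of pas-6 were 237 and 156 CPM in mir-83 and 229 and 179.6 CPM in N2. For pbs-6 they were 219.5 and 153 CPM in mir-83 and 171 and 163 CPM in N2, and for rpn-11 300.1 and 189 CPM in mir-83 and 280.3 and 179.8 CPM in N2. Of the non-overlapping genes, pbs-7 and rpn-12 were higher in both mir-83 libraries, against 5.48% of all genes, and rpn-1 was lower, against 8.25%. The gene pbs-7 had 222 and 197 CPM in mir-83 and 195 and 196 CPM in N2. Its groups overlapped on plain library sizes. There 1 member was higher and 1 lower, against 6.42% and 7.59% of all genes. For rpn-12 the levels were 152 and 133 CPM in mir-83 and 118.6 and 124 CPM in N2. The gene rpn-1 had 176 and 207 CPM in mir-83 and 355 and 237 CPM in N2, a log2 difference of -0.63 ± 0.28 (edgeR adjusted p 1.00).

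**Figure D4:**
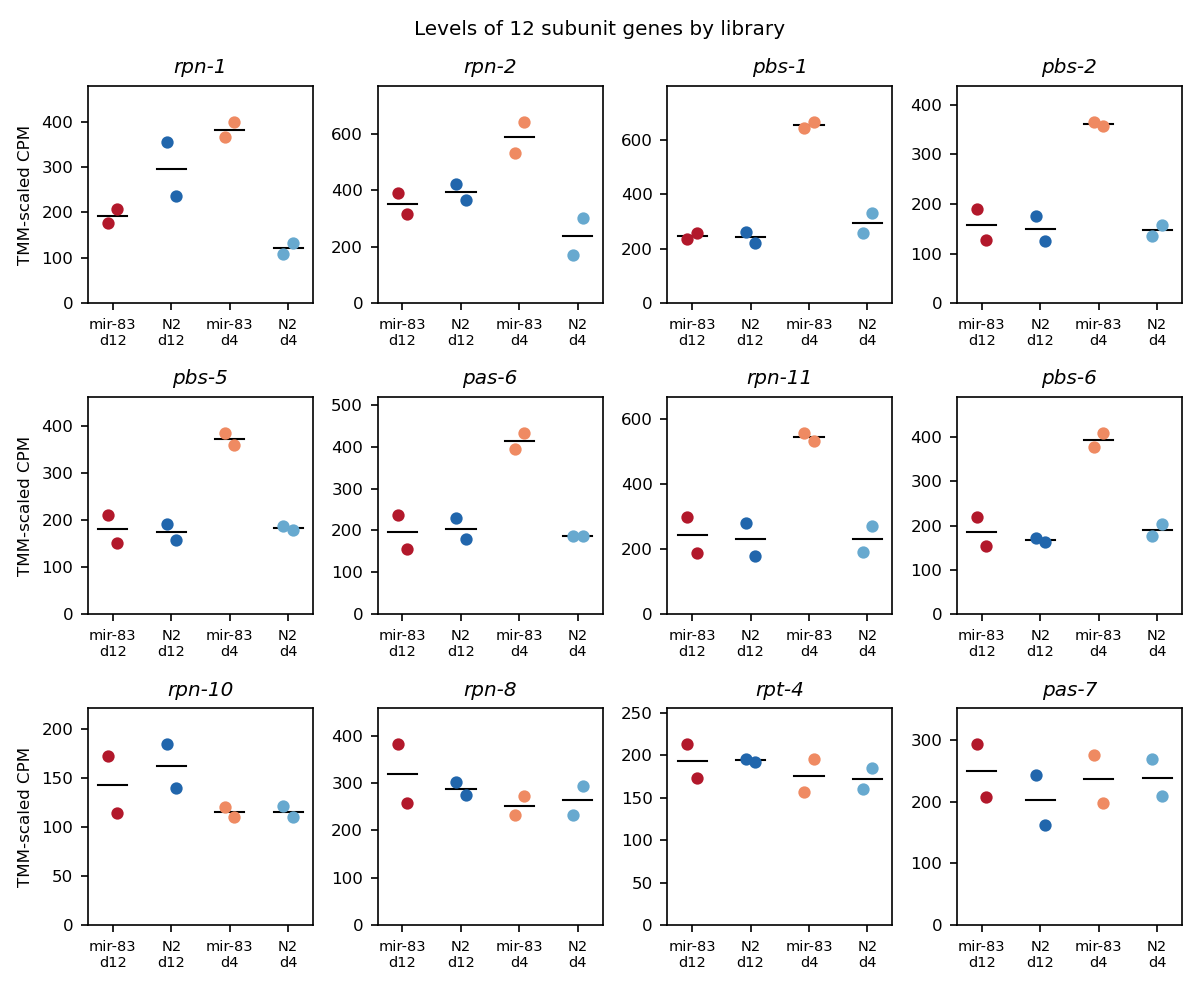
TMM-scaled CPM of 12 subunit genes is plotted for each library (points) in the 4 groups, with the group mean as a line and each vertical axis starting at 0. The first 8 panels show genes whose mir-83 day 4 libraries lie above both N2 day 4 libraries, and the last 4 panels show genes whose groups overlap at day 4.

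Within mir-83, day 12 worms had lower levels of beta ring transcripts than day 4 worms on the TMM scale. In all, 8 members were lower at day 12 and 0 higher, 6 in the core and 2 in the regulatory particle, against 15.1% lower and 12.8% higher among all genes. This comparison shares the mir-83 day 4 libraries with the comparison of strains at day 4. The median log2 change was -0.49 in the core and -0.21 in the regulatory particle, against 0.48 and 0.76 on plain library sizes, where the median of all genes was 1.01. On plain library sizes 0 members were lower and 10 higher, 1 in the core and 9 in the regulatory particle, against 6.15% lower and 37.3% higher among all genes.

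In the beta ring 5 of 7 genes were lower at day 12 in mir-83 by edgeR's test with TMM factors. The gene pbs-1 had 234 and 258 CPM at day 12 and 642 and 664 CPM at day 4, a log2 change of -1.41 ± 0.25 (adjusted p 0.0080), and -0.45 on plain library sizes. For pbs-2 the change was -1.21 ± 0.28 (edgeR adjusted p 0.017) and for pbs-5 -1.05 ± 0.24 (adjusted p 0.016). For pbs-6 the levels were 220 and 153 CPM at day 12 and 378 and 409 CPM at day 4 (-1.08 ± 0.26, edgeR adjusted p 0.021). For pbs-7, on chromosome I from 8695205 to 8696301, they were 222 and 197 CPM at day 12 and 324 and 387 CPM at day 4 (-0.76 ± 0.24, edgeR adjusted p 0.045). On plain library sizes pbs-2, pbs-5 and pbs-6 stood between -0.24 and -0.09 and pbs-7 at 0.21. In the alpha ring pas-6 had 237 and 156 CPM at day 12 and 396 and 433 CPM at day 4 (-1.10 ± 0.27, edgeR adjusted p 0.021; -0.14 on plain library sizes). The other 6 alpha genes did not pass and ranged from -0.46 (pas-5) to 0.08 (pas-7), and from 0.50 to 1.05 for the same genes on plain library sizes.

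In the regulatory particle rpn-11 and rpn-1 were lower at day 12 in mir-83 with TMM factors. The gene rpn-11 had 300 and 189 CPM at day 12 and 557 and 532 CPM at day 4 (log2 -1.18 ± 0.33, edgeR adjusted p 0.034; -0.21 on plain library sizes). The gene rpn-1 had 176 and 207 CPM at day 12 and 366 and 399 CPM at day 4 (-0.998 ± 0.28, edgeR adjusted p 0.035; -0.03 on plain library sizes). The scaffold gene rpn-2 had 391 and 314 CPM at day 12 and 533 and 642 CPM at day 4 (-0.72 ± 0.32, edgeR adjusted p 0.12; 0.24 on plain library sizes). The ATPase gene rpt-3 had 262 and 174 CPM at day 12 and 280 and 354 CPM at day 4 (-0.54 ± 0.31, edgeR adjusted p 0.22; 0.43 on plain library sizes). Levels of rpn-6.1 were 210 and 148 CPM at day 12 and 175 and 169 CPM at day 4, which overlapped on the TMM scale. Those of rpn-10 also overlapped, with 172 and 114 CPM at day 12 and 120 and 110 CPM at day 4. On plain library sizes both genes were higher in both day 12 libraries, against 56.3% of all genes. There rpn-6.1 had 253 and 180 CPM at day 12 and 112 and 101 CPM at day 4. For rpn-10 the values were 206 and 138 CPM at day 12 and 77.2 and 65.5 CPM at day 4. Levels of rpn-12 were 152 and 133 CPM at day 12 and 150 and 182 CPM at day 4 (log2 -0.21, and 0.75 on plain library sizes). The count of 8 fell to 0 without mir-83 day 4 replicate 1 or without replicate 2, and to 3 without mir-83 day 12 replicate 2.

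In N2 the core and regulatory particles parted with age in their medians. The median log2 change at day 12 against day 4 was -0.14 in the core and 0.31 in the regulatory particle (-0.04 and 0.40 on plain library sizes), against -0.09 for all genes. A single member passed edgeR's test, rpn-1, which was higher at day 12, and 0 were lower, against 2.11% higher and 2.39% lower among all genes. The gene rpn-1 had 355 and 237 CPM at day 12 and 109 and 132 CPM at day 4, so both old libraries stood above both young ones. The change was 2.46-fold (log2 1.30 ± 0.29, edgeR adjusted p 0.046), and 1.39 on plain library sizes (adjusted p 0.028), where 1 member was called higher against 4.16% of all genes. That call was lost without any 1 of the 4 N2 libraries, without either mir-83 day 4 library and without the replicate block, where 0 were called. Without mir-83 day 12 replicate 1 or replicate 2, 2 were called.

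Both day 12 libraries lay above both day 4 libraries of N2 in 9 of 19 regulatory genes and 0 of 14 core genes, against 29.5% of all genes. With plain sizes those counts were 16 and 1, against 32.8%. The gene rpn-2 had 421 and 365 CPM at day 12 and 172 and 301 CPM at day 4 (log2 0.76 ± 0.32, edgeR adjusted p 0.17). Levels of rpn-6.1 were 207 and 153 CPM at day 12 and 133 and 131 CPM at day 4 (0.43 ± 0.25, adjusted p 0.27), those of rpn-10 184 and 139 CPM at day 12 and 121 and 110 CPM at day 4 (0.47 ± 0.24, adjusted p 0.23). All 6 ATPase genes had log2 changes above 0, from 0.17 (rpt-4) to 0.45 (rpt-3), and none passed. Only 2 of the 6 had the same sign in both replicate pairs, with ring medians of 0.76 and -0.04. On plain library sizes all 6 did, with medians of 0.76 and 0.15. For rpt-3 the levels were 230 and 206 CPM at day 12 and 132 and 189 CPM at day 4. Among the catalytic beta subunits, pbs-1 had 261 and 222 CPM at day 12 and 256 and 329 CPM at day 4. Levels of pbs-2 were 175 and 125 CPM at day 12 and 136 and 157 CPM at day 4, and those of pbs-5 191 and 158 CPM at day 12 and 187 and 180 CPM at day 4. All 3 overlapped between the ages. The replicate pairs differed: the median in the regulatory particle was 0.64 in replicate 1 and 0.00 in replicate 2.

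The paralogue rpn-6.2 had 29.1 and 33.7 CPM in N2 at day 12 and 15.996 and 7.08 CPM in N2 at day 4 (log2 1.62 ± 0.58, edgeR adjusted p 0.13), and DESeq2 called it together with rpn-1, against 10.9% of all genes called higher. In mir-83 it had 49.2 and 11.8 CPM at day 12 and 22.9 and 23.5 CPM at day 4. The summed sperm markers were 149 and 437 CPM in N2 at day 12 and 105 and 26.1 CPM in N2 at day 4, and 374 and 27.5 CPM in mir-83 at day 12 and 38.2 and 51.9 CPM in mir-83 at day 4. Their part in the level of rpn-6.2 was not tested.

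**Figure D5:**
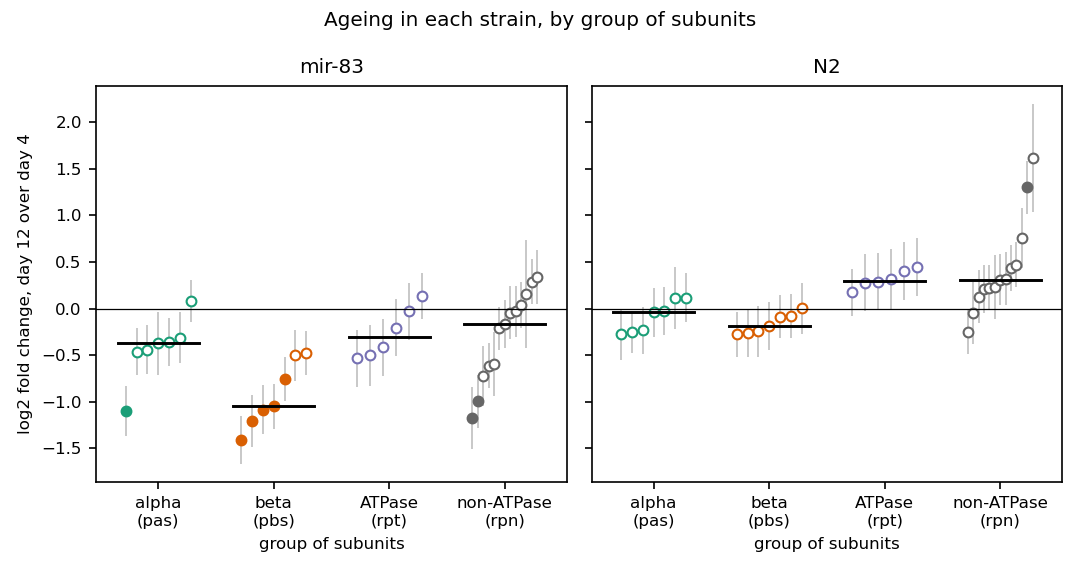
The log2 fold change of day 12 over day 4 (vertical axis, TMM scale, bars are SE) is plotted for each subunit gene in mir-83 (left) and in N2 (right), by group of subunits, with the median as a line. Filled points mark genes with an edgeR adjusted p under 0.05, which are 8 genes below 0 in mir-83 and rpn-1 above 0 in N2.

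The ratio of regulatory to core particle transcripts, which does not depend on the scaling, was chosen after the values were seen and carries no test. It was 0.006 and -0.006 on the log2 scale in mir-83 at day 12, against -0.475 and -0.305 in mir-83 at day 4. In N2 it was 0.156 and 0.190 at day 12, against -0.448 and -0.257 at day 4. In both strains each day 12 library lay above both day 4 libraries, with a mean difference of 0.390 in mir-83 and 0.525 in N2.

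Whether the strains aged differently was tested as the difference between the mir-83 effect at day 12 and that at day 4. No member passed edgeR's test, and 0.0% of all genes did. At an unadjusted p under 0.05 there were 9 members, all negative, against 10.1% of all genes in that direction; on plain library sizes 1 of the 9, rpn-9, stood at 0.03 and the others below 0. DESeq2 called 1, rpn-1, against 4.56% of all genes negative. The nearest to the edgeR threshold was rpn-1, with -2.30 ± 0.40 (adjusted p 0.058) and -1.41 ± 0.34 on plain library sizes (adjusted p 0.042). It was called without mir-83 day 12 replicate 2. Medians were -0.44 in the core and -0.61 in the regulatory particle, against 0.08 for all genes. On plain library sizes they were 0.42 and 0.26, against 0.95 for all genes. With plain sizes 1 member was called positive, pas-7, and 1 negative, rpn-1, against 10.3% and 0.687% of all genes.

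In the lists around the proteasome, no gene passed edgeR's test of the difference between strains in ageing with TMM factors. On plain library sizes that test called 5 of 10 CDC-48 genes and 4 of 6 COP9 genes positive, against 10.3% of all genes. It also called positive 2 of 8 SKN-1A, 2 of 10 associated, 3 of 18 ubiquitin-conjugating and 1 of 20 V-ATPase genes. In the SKN-1A and V-ATPase lists 1 gene each was called negative, against 0.687% of all genes, and 0 CCT genes were called. For ageing in mir-83, 15.1% of all genes were lower at day 12 and 12.8% higher. On plain library sizes 6.15% were lower and 37.3% higher. Of the 20 V-ATPase genes 16 were lower at day 12 in mir-83 and 0 higher (median -1.41; all but vha-7, vha-14, vha-17 and vha-18), and 6 lower and 2 higher on plain library sizes (median -0.44). Of the 16, vha-9 and vha-16 stood above 0 on plain library sizes (0.01 and 0.24). In N2, vha-3 and vha-6 were lower (median -0.75, and -0.66 on plain library sizes), against 2.39% of all genes. Of the 6 COP9 genes, csn-1, csn-2, csn-3 and csn-4 were higher at day 12 in mir-83 (log2 0.84 to 1.64), and all 6 on plain library sizes. In N2 edgeR called 0 COP9 genes and 2 had an unadjusted p under 0.05, both positive. Among all genes, 4468 of 15874 had such a p in N2, and 2395 of those were positive. In mir-83, sel-11 (-1.81 ± 0.25, edgeR adjusted p 0.0042) and cdc-48.1 (-1.08 ± 0.33, adjusted p 0.045) were lower at day 12, and sel-11 was lower on plain library sizes too (-0.85, adjusted p 0.015). The median of the SKN-1A list was -0.31 in mir-83 (0.65 on plain library sizes) and 0.52 in N2. With TMM factors edgeR called 0 of the list in N2. At an unadjusted p under 0.05 there were 3 of 8, all positive, against 2395 of 15874 genes. On plain library sizes skn-1 was called higher with age in N2 (0.94, edgeR adjusted p 0.040), against 4.16% of all genes. So was uba-1 of the associated list (1.01, edgeR adjusted p 0.038). Among the 10 associated genes, psme-3, a proteasome activator gene, and ubq-2, a ubiquitin gene, were lower at day 12 in mir-83 with TMM factors (-0.99 ± 0.23 and -1.42 ± 0.27). Neither passed on plain library sizes (-0.03 and -0.46), where 4 of the list were higher and 0 lower, against 37.3% and 6.15% of all genes. In the CDC-48 list, cdc-48.3 (1.42 ± 0.30), the ubiquitin chain elongation factor gene ufd-2 (1.08 ± 0.27) and atx-3 (1.18 ± 0.27) were higher at day 12 in mir-83 and cdc-48.1 lower, and plain library sizes gave 8 higher and 0 lower. Of the 18 ubiquitin-conjugating enzymes ubc-7 was higher (0.73 ± 0.22), and let-70 (-1.07 ± 0.26), ubc-8 (-1.49 ± 0.44), ubc-20 (-1.03 ± 0.28) and ubc-26 (-1.40 ± 0.33) were lower, against 9 higher and 0 lower on plain library sizes. Of the 8 CCT genes cct-1 was lower (-1.06 ± 0.25; median of the list -0.31), against 4 higher and 0 lower on plain library sizes (median 0.65). In N2 edgeR called 0 CCT genes (median 0.70). At an unadjusted p under 0.05 there were 5, all positive, against 2395 of 15874 genes. In mir-83 all 10 body wall muscle markers and 9 of 10 intestine markers were lower at day 12 (9 and 6 on plain library sizes), with summed levels of 300 and 638 CPM at day 12 against 9325 and 7433 CPM at day 4 for muscle. In N2, 4 of 10 muscle and 4 of 10 intestine markers were also lower (4 and 3 on plain library sizes), against 2.39% of all genes with TMM factors. The difference between strains in ageing called 0 of these markers with TMM factors. On plain library sizes it called 1 muscle and 4 intestine markers negative, against 0.687% of all genes. Their part in the proteasome changes was not tested.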

How the data were processed

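RNA from whole worms was sequenced in 8 libraries, 2 in each of 4 groups. The deposited values are raw counts of reads for each transcript, and the replicates are held in separate sheets. Per the submitters' processing notes, Bowtie2, edgeR and the build ce11 were used. The method of counting, and any use of strand, are not given in the sources used. Transcripts were matched to WBcel235 genes, by sequence name in the first sheet (30228 of 30443) and by accession (24013) or gene name (4814) of 29023 in the second, and summed per gene. Transcripts with no match held 0.0908% and 0.229% of reads and were left out.

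Tests were edgeR 4.0.16 quasi-likelihood fits to all 8 libraries (R 4.3.3, TMM factors, filterByExpr, 1 mean for each group and the replicate number as a block), with 3 residual degrees of freedom, a common biological coefficient of variation of 0.429, two-sided p-values and Benjamini-Hochberg adjustment over 15874 genes. Log2 fold changes are the group named first minus the other. The labels do not say whether replicates were separate cultures. The p-values therefore reflect the spread among these samples alone, and that spread may be technical. Replicate number also marks the sheet; the pairing is taken from the sheet. Libraries that share a number deviated together, with correlations of 0.119 to 0.416 in the 6 pairs of groups. No replicate pair agreed within sampling noise. Since the sheets hold different transcript lists, that outcome does not show whether the replicates were separate samples. The fit was also run on simulated counts, whose mir-83 day 4 means were those of N2 day 4 apart from a set of changed genes. That simulation lacked the difference in TMM factors between these groups, so it cannot speak to the choice of scaling.

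Values in every library are given for members past an adjusted p of 0.05 in any comparison and for pbs-1, pbs-2, pbs-5, rpt-3, rpn-6.1, rpn-10, rpn-11 and rpn-12. Others were named after their values were seen. Listed partner genes are named where past the threshold, with skn-1, ddi-1, png-1, dss-1, psmd-9, ubh-4 and aip-1. Members and lists were chosen with earlier results of these data known. Exons of rpn-7 share 20.7% of their length and those of rpt-4 7.05% with a gene on the opposite strand. Alternatives were RLE size factors, plain library sizes, no filter, no block, DESeq2 1.42.0, each library left out, only the 4 libraries compared, and the transcript with most reads in place of the sum. For the 2 ratios, alternatives were added after seeing the data. Figures were drawn with Python 3.11.15.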

Additional observations from a re-analysis of the deposited data

How the results depend on the processing

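At day 4 the 6 members called higher in mir-83 became 3 with RLE size factors and 1 on plain library sizes. They became 3 with only the transcript that had most reads, and 19 with only the 4 libraries compared. Beside the 1 on plain library sizes, 1.32% of all genes were called higher. That share is not given for the other fits, so their counts are no measure of the members against all genes. Plain library sizes also gave 5 called lower and turned the medians to -0.22 in the core and -0.20 in the regulatory particle. The pairing by replicate number mattered: with no replicate block 1 member was called at day 4 and 0 for ageing in N2, where the 4 N2 libraries alone gave 0 and DESeq2 2. For ageing in mir-83 the 8 called lower became 5 with RLE size factors and 0 on plain library sizes, which called 10 higher and gave medians of 0.48 and 0.76. For the difference between ages, plain library sizes called 1 positive and 1 negative, and 1 negative was called with no filter and with DESeq2. Its median was 0.42 in the core on plain library sizes, and in the regulatory particle 0.26 on plain library sizes and -0.52 with RLE size factors and with DESeq2. The median of all genes was 0.95 on plain library sizes. Beta over alpha was 0.409 with medians over members. It was 0.482 without pas-6, a choice that could only raise it. Regulatory over core in ageing mir-83 worms was 0.578 with medians. The cause was not tested.

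Leaving out each library in turn gave 0 to 10 members called higher at day 4 (medians 0.38 to 0.88 in the core and 0.29 to 0.86 in the regulatory particle), 0 called at day 12 (medians of -0.071 to 0.42 and -0.32 to 0.34), 0 to 7 called lower for ageing in mir-83 (medians -0.84 to -0.25 and -0.54 to 0.04) and 0 to 2 called higher for ageing in N2 (medians -0.31 to -0.01 and 0.07 to 0.57). The difference between ages had 0 to 1 called negative (medians -0.75 to -0.12 and -0.97 to -0.26). Beta over alpha kept within 0.372 to 0.386.

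Some small single values changed sign. At day 4, rpn-6.1 had -0.47 and rpn-12 -0.66 on plain library sizes. For rpn-10 the value was 0.0093 with RLE size factors and with DESeq2, 0.033 with only the transcript that had most reads, and -0.14 to 0.13 when single libraries were left out. In ageing mir-83 worms pbs-7 had 0.21 on plain library sizes. In ageing N2 worms pbs-5 had 0.014 on plain library sizes and -0.19 to 0.0016 over the libraries left out, rpn-11 had 0.046 on plain library sizes and 0.0044 with the 4 N2 libraries, and over the libraries left out pbs-2 ran from -0.27 to 0.27 and rpn-11 from -0.50 to 0.44.

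With 2 libraries a group, the spread within a group rests on a single pair, and a difference that did not pass was not detectable with these libraries rather than absent.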
